A study of Mus musculus with 6 samples.

Results

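The 38 Hox genes followed here are those of clusters a, b, c and d listed by symbol. A gene counted as measured when the platform's annotation gave at least 1 probe set to that symbol alone, and the log2 ratios of its probe sets were averaged. By this rule 31 of the 38 genes were measured, by 37 probe sets, among 12393 named genes and 22626 probe sets in all. Of these genes, 26 had 1 probe set, 4 had 2 and Hoxc6 had 3. Hoxa6, Hoxb8, Hoxc10, Hoxc11, Hoxc12, Hoxd3 and Hoxd4 had no probe set of their own and were not analysed here. The measured genes comprised 9 of cluster a, 9 of cluster b, 6 of cluster c and 7 of cluster d.

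RNA came from the tail region behind the last formed somite of C57BL/6 mouse embryos at 9.5 days post coitum, a level whose dissected tissue carried all germ layers along with the presomitic mesoderm. Of the 6 pools, 3 came from Dll3neo/neo embryos, which carry the neo allele tm1Rbe on both copies of Dll3, a Notch pathway ligand, and 3 from wild-type (Dll3+/+) embryos. The pools were biological replicates per the series' design text, and the labels used here give no number of embryos per pool. Each pool was hybridised to 1 Affymetrix MOE430A array, so the 6 arrays limit the precision of every value. Because whole tissue was sampled, fewer cells of a type and less RNA per cell cannot be told apart.

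Hox genes encode homeodomain transcription factors that give cells of the trunk and tail their position along the head-to-tail axis. They lie in clusters, and within a cluster the genes near the 3′ end (low paralog numbers) are switched on earlier and reach further toward the head than those near the 5′ end (high paralog numbers). Genes with the same paralog number in different clusters descend from 1 ancestral gene. In the tail bud and presomitic mesoderm, caudal-type homeodomain factors (Cdx), Wnt, FGF and retinoid signals act on this sequence, and a shift of the axial level that a dissection captures can move low and high paralog groups apart. Paralog groups 1 to 3 are called anterior here, groups 4 to 8 central and groups 9 to 13 posterior, with 6, 12 and 13 measured genes.

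The deposited values are ratios, in which each probe set was divided by its median across the 6 pools. A ratio of 1 is therefore the middle of the pools for nearly all probe sets (92.7%), and no value gives an absolute level. For this reason levels could not be ranked between Hox genes, and whether the markers of the labelled tissue are present could not be read. Dll3 itself had ratios of 0.480, 0.476 and 0.537 in Dll3neo/neo pools 1, 2 and 3, against 1.46, 1.63 and 2.01 in wild-type pools 1, 2 and 3. In Dll3neo/neo pools Dll3 fell by 1.76 on the log2 scale (SE 0.13, limma adjusted p = 0.00132), and whether its probe set covers the sequence that the allele alters was not known. Some pools stood apart over all genes. The SD of the log2 ratios over all named genes was 0.274 in wild-type pool 3, against 0.139 to 0.196 in the other 5 pools, and wild-type pool 3 held the highest value of 34.4% of genes and the lowest of 32.5%. Dll3neo/neo pool 1 had a median log2 ratio of 2.21 over 9 of 9 measured heart muscle genes, against -0.34 to 0 in the other pools.

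No Hox gene passed the test for a difference between the genotypes. The ratios of Dll3neo/neo and wild-type pools were compared for every gene with limma, adjusting p over 12393 genes with the Benjamini-Hochberg method at a threshold of 0.05. None of the 31 Hox genes passed in either direction (limma adjusted p = 0.99998 for each of them), where 0.00807% of all genes did, which is Dll3 alone. At an unadjusted limma p under 0.05 the count was 0 of 31 Hox genes, against 1.28% of all genes (0.807% higher and 0.476% lower). The same test on single probe sets called 0 of the 37 Hox probe sets, against 0.00442% of all probe sets, and 0 of the 37 had an unadjusted p under 0.05, against 1.16% (0.61% higher and 0.548% lower). An exact two-sided permutation test with 3 pools a genotype has 0.10 as its smallest p and could not pass the threshold. By sign 12 Hox genes were higher and 19 lower in Dll3neo/neo pools. The median log2 difference, Dll3neo/neo minus wild type, was -0.032 over the Hox genes, against 0.0028 over all genes. This sign rested on wild-type pool 3: without it 22 Hox genes were higher and 9 lower, with a median of 0.056. The differences ran from -0.28 for Hoxb1 to 0.23 for Hoxc13, and only 9 of the 31 were larger in size than their own SE.

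**Figure D1:**
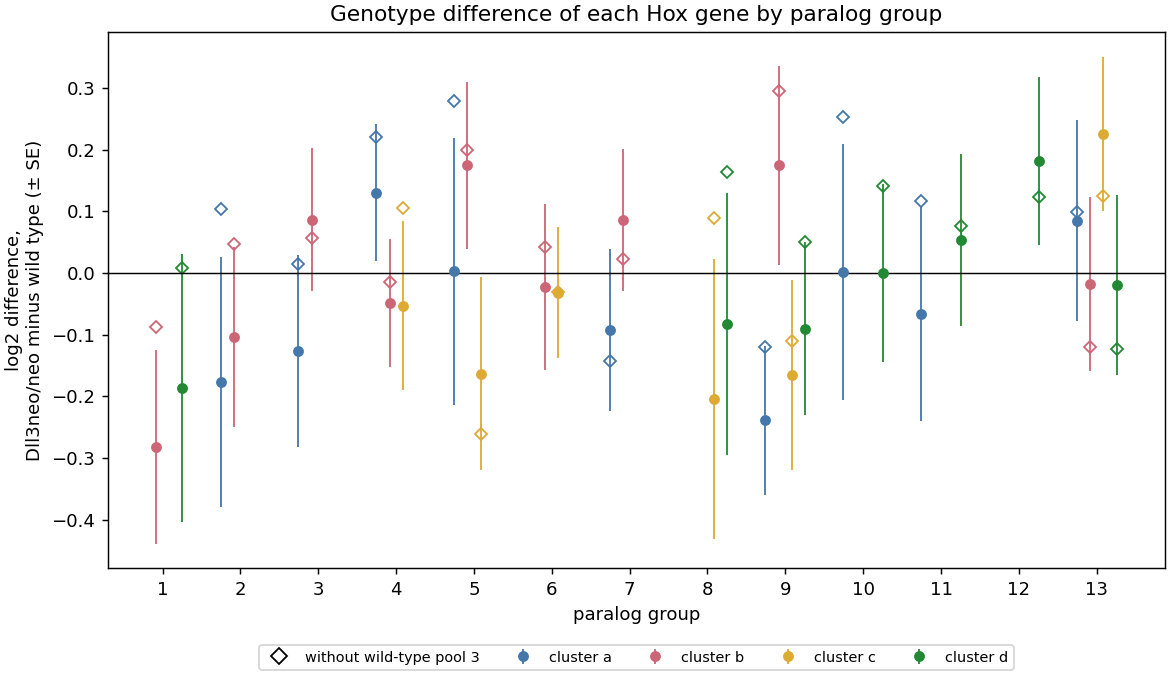
Log2 difference between genotypes (vertical axis, Dll3neo/neo minus wild type) of the 31 measured Hox genes by paralog group (horizontal axis), coloured by cluster. Filled circles are fits over all 6 pools with bars of 1 limma SE, and open diamonds are fits without wild-type pool 3, in which 22 of the 31 genes lie above 0.

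The anterior genes gave the lowest median of the 3 classes, -0.15, with 5 of 6 lower by sign in Dll3neo/neo pools. Without wild-type pool 3 that median turned to 0.031. Hoxb1, a gene of the hindbrain and early posterior axis that also regulates itself together with Pbx proteins, had ratios of 0.955, 0.961 and 1.01 in Dll3neo/neo pools 1, 2 and 3, against 1.08, 0.993 and 1.55 in wild-type pools 1, 2 and 3. Only wild-type pool 3 was far above the rest, and the genotypes overlapped because Dll3neo/neo pool 3 lay above wild-type pool 2. Hoxb1 had a log2 difference of -0.28 with an SE of 0.16 (limma adjusted p = 0.99998), and of -0.088 (SE 0.088) without wild-type pool 3.

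Hoxd1, the other measured gene of paralog group 1, varied within both genotypes. Its ratios were 0.773, 0.893 and 1.23 in Dll3neo/neo pools 1, 2 and 3, against 0.802, 1.11 and 1.41 in wild-type pools 1, 2 and 3. The highest and lowest pools of each genotype lay wider apart than the genotype means, and the log2 difference was -0.19 (SE 0.22), or 0.0079 without wild-type pool 3. Dll3neo/neo pool 1, the lowest of the 6 pools here, is the pool with the high heart muscle genes, and without it the difference was -0.040. The part of the heart muscle RNA was not tested.

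Hoxa2, a patterning gene of the hindbrain and of neural crest, had ratios of 0.993, 1.06 and 1.01 in Dll3neo/neo pools 1, 2 and 3, against 0.913, 0.987 and 1.70 in wild-type pools 1, 2 and 3. The high value again belonged to wild-type pool 3 alone, while the other wild-type pools lay below all Dll3neo/neo pools. The log2 difference of -0.18 (SE 0.20) turned to 0.10 (SE 0.088) without that pool. Among the remaining anterior genes the log2 difference was -0.10 for Hoxb2, -0.13 for Hoxa3 and 0.086 for Hoxb3, the 1 anterior gene that was higher by sign. Both Hoxa3 probe sets were lower by sign (-0.20 and -0.055).

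The stretch just upstream of the start is shown for Hoxa9, Hoxb1 and Hoxa2, which had the 1 difference without overlap between genotypes, the largest difference and the highest ratio in wild-type pool 3 among Hox genes with an entry, and were chosen after their values were seen. RefSeq (build GRCm38.p6) gives such a region for 22 of the 38 Hox genes, 24 regions in all, and the 250 bases before each start are used. Capitals mark matches on either strand to TTTATG (Cdx), TGGGAA (Rbpj, the DNA-binding partner of Notch), TGATNNAT (Pbx with Hox) or AGGTCA (a retinoid receptor half-site). Each is printed 5′ to 3′ along its gene.
Hoxa9 (chr6:52227371-52227620, minus strand): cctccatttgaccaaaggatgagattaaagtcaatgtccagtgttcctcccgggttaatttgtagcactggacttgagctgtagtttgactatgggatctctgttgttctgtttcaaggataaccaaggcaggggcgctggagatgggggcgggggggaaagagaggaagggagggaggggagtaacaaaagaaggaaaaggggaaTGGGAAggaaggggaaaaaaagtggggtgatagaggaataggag
Hoxb1 (chr11:96365508-96365757, plus strand): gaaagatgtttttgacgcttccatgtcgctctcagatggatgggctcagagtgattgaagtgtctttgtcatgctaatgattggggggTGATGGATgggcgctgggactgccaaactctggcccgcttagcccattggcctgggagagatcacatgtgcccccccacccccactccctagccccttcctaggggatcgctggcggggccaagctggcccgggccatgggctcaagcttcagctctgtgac
Hoxa2 (chr6:52164832-52165081, minus strand): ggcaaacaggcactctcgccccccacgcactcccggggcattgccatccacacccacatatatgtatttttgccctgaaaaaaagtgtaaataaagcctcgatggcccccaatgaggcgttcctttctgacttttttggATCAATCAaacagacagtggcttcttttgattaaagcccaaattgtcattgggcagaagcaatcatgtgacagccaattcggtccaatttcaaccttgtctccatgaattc
In these windows Hoxa9 held TGGGAA, and Hoxb1 and Hoxa2 each held TGATNNAT, in Hoxa2 on the strand opposite the gene. Each window held 1 match, so none overlapped another motif. Over all Hox regions TTTATG was found in 5 of 24 (20.8%), against 10.8% of 32851 regions of all genes, TGGGAA in 4 (16.7%, against 21.6%), TGATNNAT in 4 (16.7%, against 7.68%) and AGGTCA in 6 (25%, against 14%). TTTATG lay in Hoxa7, Hoxd11 and the unmeasured genes Hoxb8, Hoxd3 and Hoxd4, and each other motif also matched in at least 1 unmeasured gene. A match is a description of letters and no evidence of a bound factor.

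The central genes, which pattern the neck and thorax, had a median log2 difference of -0.040, with 8 of 12 lower by sign, and 0.065 without wild-type pool 3. Hoxc8, a gene of thoracic identity, had the widest spread of any Hox gene over the 6 pools. Its ratios were 0.829, 1.03 and 1.15 in Dll3neo/neo pools 1, 2 and 3, against 0.968, 0.901 and 1.72 in wild-type pools 1, 2 and 3. The genotypes overlapped, and the log2 difference was -0.20 (SE 0.23), or 0.089 without wild-type pool 3.

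Hoxa4, a gene of the neck vertebrae, and Hoxb5, which helps set the level of the shoulder, were the central genes furthest to the higher side. Hoxa4 had ratios of 0.941, 0.870 and 0.906 in Dll3neo/neo pools 1, 2 and 3, against 0.795, 0.759 and 0.937 in wild-type pools 1, 2 and 3. Its log2 difference was 0.13 (SE 0.11), and 0.22 (SE 0.087) without wild-type pool 3, when the Dll3neo/neo values lie above the 2 wild-type values left. Its 2 probe sets were both higher by sign (0.083 and 0.18), and 1 of them had a deposited median below 1, which holds all 6 gene values under 1.

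Hoxb5 had ratios of 1.02, 1.07 and 0.984 in Dll3neo/neo pools 1, 2 and 3, against 0.746, 1.07 and 0.939 in wild-type pools 1, 2 and 3. Here the pool that stood out was wild-type pool 1, which was low. The log2 difference was 0.17 (SE 0.14), and 0.033 without that pool. Hoxc6 was the 1 gene whose probe sets disagreed in sign, with log2 differences of 0.010, -0.0019 and -0.10. Averaged over them, Hoxc6 had ratios of 0.915, 1.02 and 0.989 in Dll3neo/neo pools 1, 2 and 3, against 1.08, 0.918 and 0.997 in wild-type pools 1, 2 and 3. By probe set 1427454_at, the lowest of the 3, Dll3neo/neo pool 1 had a ratio of 0.758, against 0.921 to 1.01 in the other pools. The remaining 8 central genes had log2 differences from -0.16 for Hoxc5, whose highest ratio was 1.37 in wild-type pool 2, to 0.086 for Hoxb7. Hoxa5 (0.0024), Hoxb6 (-0.023) and Hoxb4 (-0.049) lay closest to 0 over all 6 pools. For Hoxa5 this rested on wild-type pool 3, whose ratio was 1.59, and the difference was 0.28 (SE 0.13) without it.

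The posterior genes had a median log2 difference of 0.0005, with 7 of 13 higher and 6 lower by sign. Hoxa9 was the only Hox gene whose Dll3neo/neo pools all lay on 1 side of the wild-type pools, 1 of 31 (3.23%) where 4.95% of all genes did so and 1.84% did so on the lower side, as Hoxa9 did. Its ratios were 0.977, 0.907 and 0.946 in Dll3neo/neo pools 1, 2 and 3, against 1.03, 1.02 and 1.31 in wild-type pools 1, 2 and 3. The gap between the genotypes was small outside wild-type pool 3, and Hoxa9 had a log2 difference of -0.24 with an SE of 0.12 (limma adjusted p = 0.99998), or -0.12 (SE 0.085) without that pool. Neither of its 2 probe sets separated the genotypes alone, and none of the 37 Hox probe sets did, where 5.03% of all probe sets did (3.05% higher and 1.99% lower). Probe set 1455626_at carried the high wild-type pool 3 value (1.67) and probe set 1421579_at did not (1.03).

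The other measured genes of paralog group 9 went different ways by value. Hoxb9 had ratios of 0.944, 1.26 and 1.01 in Dll3neo/neo pools 1, 2 and 3, against 0.759, 0.989 and 1.11 in wild-type pools 1, 2 and 3. Dll3neo/neo pool 2 was the highest and wild-type pool 1 the lowest, and the log2 difference of 0.17 (SE 0.16) was 0.052 without Dll3neo/neo pool 2 and 0.018 without wild-type pool 1. Hoxc9 had ratios of 0.693, 0.979 and 1.02 in Dll3neo/neo pools 1, 2 and 3, against 1.02, 0.894 and 1.07 in wild-type pools 1, 2 and 3. The low Hoxc9 value belonged to Dll3neo/neo pool 1, the pool with the high heart muscle genes, and the log2 difference of -0.16 (SE 0.15) was 0.012 without it. Hoxd9 had ratios of 0.952, 1.14 and 0.973 in Dll3neo/neo pools 1, 2 and 3, against 1.03, 0.939 and 1.32 in wild-type pools 1, 2 and 3. Its genotypes overlapped, with a log2 difference of -0.090 (SE 0.14), or 0.050 without wild-type pool 3. Hoxa10 (0.0018), Hoxd10 (0.0005), Hoxa11 (-0.066) and Hoxd11 (0.053) had log2 differences under 0.10 in size, though the ratios of Hoxa10 ran from 0.734 in wild-type pool 2 to 1.41 in wild-type pool 3, and its difference was 0.25 without wild-type pool 3.

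At the 5′ end of the clusters the order of the pools changed. Hoxc13 had ratios of 1.14, 1.05 and 0.970 in Dll3neo/neo pools 1, 2 and 3, against 1.03, 0.907 and 0.783 in wild-type pools 1, 2 and 3. Wild-type pool 3 was the lowest here, and the log2 difference of 0.23 (SE 0.13) was 0.12 without it. Hoxd12 had ratios of 1.31, 1.04 and 0.940 in Dll3neo/neo pools 1, 2 and 3, against 1.04, 0.963 and 0.885 in wild-type pools 1, 2 and 3. The highest Hoxd12 value was that of Dll3neo/neo pool 1 and the lowest that of wild-type pool 3. The log2 difference was 0.18 (SE 0.14), and 0.045 without Dll3neo/neo pool 1. Hoxa13, which patterns the hindgut, genital tubercle and limb tips, had ratios of 1.27, 0.791 and 1.16 in Dll3neo/neo pools 1, 2 and 3, against 0.979, 0.988 and 1.01 in wild-type pools 1, 2 and 3. Its Dll3neo/neo values enclosed the wild-type ones, with a log2 difference of 0.085 (SE 0.16) that ran from -0.051 to 0.29 leaving out each pool in turn.

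Hoxb13, a gene of the end of the tail, had ratios of 1.10, 0.885 and 1.03 in Dll3neo/neo pools 1, 2 and 3, against 1.22, 0.967 and 0.880 in wild-type pools 1, 2 and 3. Hoxd13, which acts in the cloacal region and the digits, had ratios of 1.12, 0.797 and 0.969 in Dll3neo/neo pools 1, 2 and 3, against 1.05, 1.03 and 0.837 in wild-type pools 1, 2 and 3. Both overlapped between genotypes, with log2 differences of -0.018 for Hoxb13 and -0.020 for Hoxd13. Over the 4 measured genes of paralog group 13 the pool medians of the log2 ratio were 0.18, -0.25 and 0.0014 in Dll3neo/neo pools 1, 2 and 3, against 0.054, -0.033 and -0.22 in wild-type pools 1, 2 and 3. These medians averaged -0.023 ± 0.22 in Dll3neo/neo pools and -0.066 ± 0.14 in wild-type pools (SD, n = 3 each), so their spread within each genotype was wider than the difference between them.

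**Figure D2:**
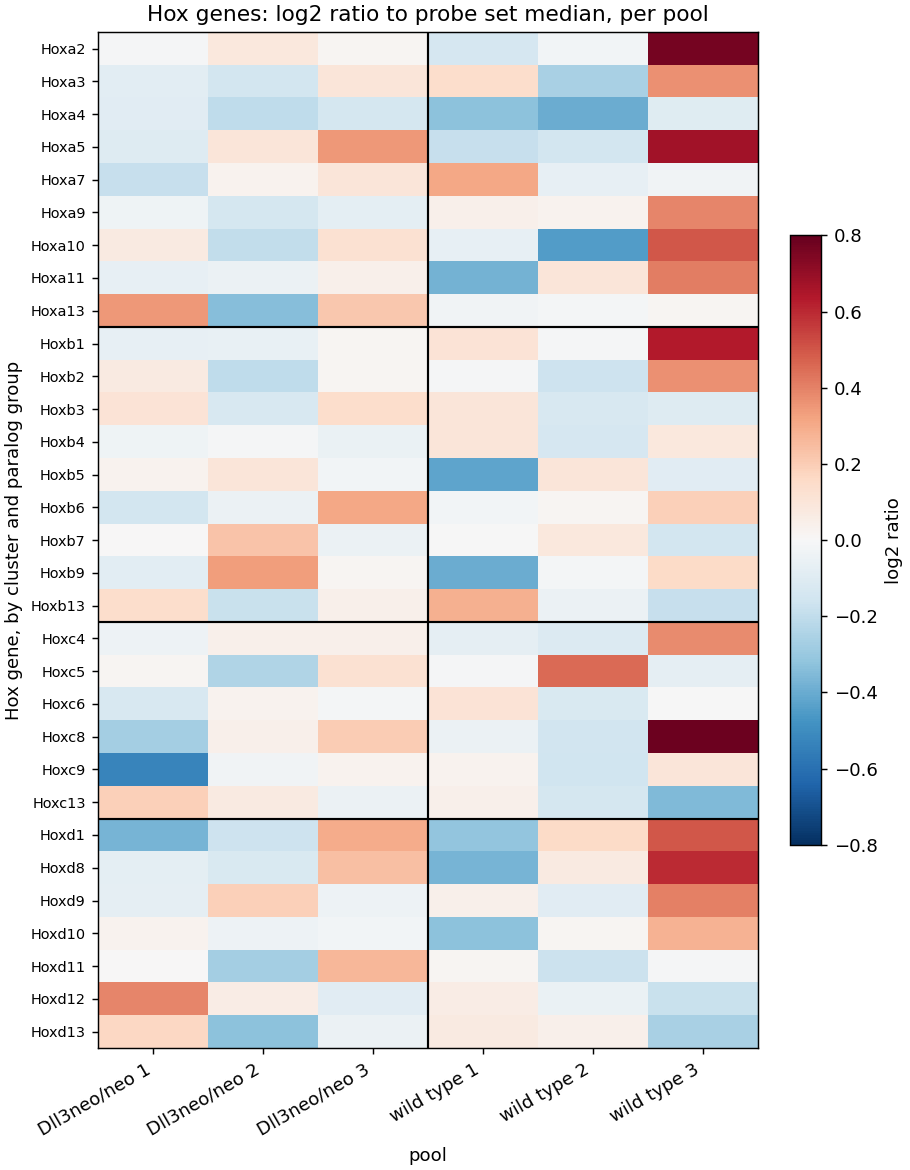
Log2 ratio to the probe set median (colour) of the 31 measured Hox genes (rows, by cluster and paralog group) in the 3 Dll3neo/neo and 3 wild-type pools (columns). The strongest column is wild-type pool 3, where 13 genes reach 25% or more above their median.

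Wild-type pool 3 stood apart among the Hox genes too. It held the highest value of 15 of the 31 Hox genes (48.4%), against 34.4% of all genes, and the lowest of 4 (12.9%), against 32.5%. In that pool 13 Hox genes (41.9%) were at least 25% above their median and 1 (3.23%), Hoxc13, was at least 20% below it, the same fold in the other direction. Over all genes 11.7% were that far above and 11.7% that far below in the same pool. In each of the other 5 pools 0 to 2 Hox genes (0 to 6.45%) were that high, against 0.105% to 1.23% of all genes. The 13 high genes were 5 of 6 anterior genes (Hoxb1, Hoxd1, Hoxa2, Hoxb2 and Hoxa3), 4 of 12 central genes (Hoxc4, Hoxa5, Hoxc8 and Hoxd8) and 4 of 13 posterior genes (Hoxa9, Hoxd9, Hoxa10 and Hoxa11). By cluster they were 6 of 9 in cluster a, 2 of 9 in b, 2 of 6 in c and 3 of 7 in d.

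The anterior class median of the log2 ratio was -0.038, -0.14 and 0.056 in Dll3neo/neo pools 1, 2 and 3, against 0.043, -0.073 and 0.43 in wild-type pools 1, 2 and 3. The central class median was -0.082, 0.030 and 0.067 in Dll3neo/neo pools 1, 2 and 3, against -0.034, -0.088 and 0.039 in wild-type pools 1, 2 and 3. The posterior class median was 0.026, -0.048 and 0.016 in Dll3neo/neo pools 1, 2 and 3, against 0.030, -0.048 and 0.099 in wild-type pools 1, 2 and 3. Wild-type pool 3 lay far above the other pools in the anterior class, slightly above them in the posterior class and within their range in the central class.

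**Figure D3:**
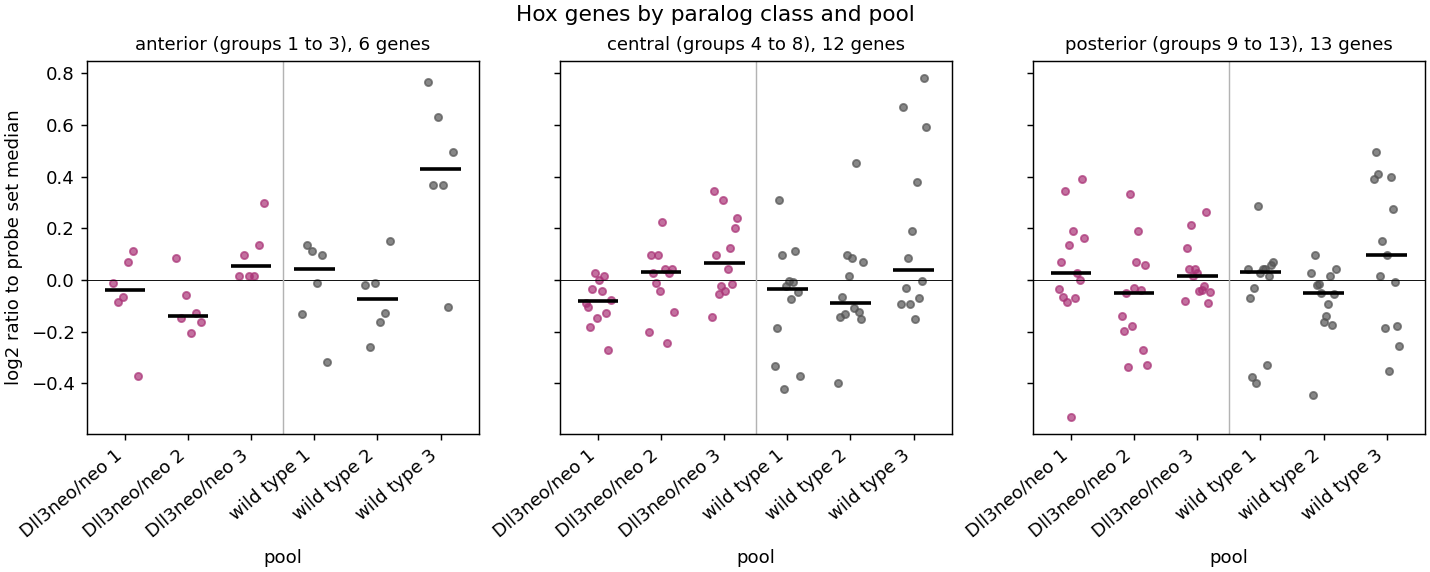
Log2 ratio to the probe set median (vertical axis) of each Hox gene (points) in the 3 Dll3neo/neo and 3 wild-type pools (horizontal axis), in a panel for each paralog class. Black lines are class medians in a pool, and that of the anterior class in wild-type pool 3 is the highest at 0.43.

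A shift in axial level was read as the mean log2 ratio of the posterior genes minus that of the anterior genes in a pool. This contrast was 0.10, 0.032 and -0.064 in Dll3neo/neo pools 1, 2 and 3, against -0.029, -0.0020 and -0.32 in wild-type pools 1, 2 and 3. It averaged 0.023 ± 0.083 in Dll3neo/neo pools and -0.12 ± 0.18 in wild-type pools (SD, n = 3 each), and the pools overlapped. The difference between genotypes, 0.14, was smaller than the spread of the wild-type pools. Leaving out each pool in turn, it ran from 0.038 (without wild-type pool 3) to 0.20 (without wild-type pool 2). It was -0.0005 without wild-type pool 3 and Dll3neo/neo pool 1 together, an alternative added after the values were seen. These pools had the lowest and the highest contrast, so leaving out both had to lower the difference, and nothing is concluded from that value. Over the 31 genes, Spearman's rho between the paralog number and the log2 ratio was 0.42, -0.07 and -0.12 in Dll3neo/neo pools 1, 2 and 3, against 0.06, 0.05 and -0.37 in wild-type pools 1, 2 and 3. These are descriptions across genes, which share an array and a median over the same 6 pools and are not independent replicates. The pools with the strongest rho, Dll3neo/neo pool 1 and wild-type pool 3, were also the pools that stood apart over other genes.

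In Dll3neo/neo pool 1, where high paralog numbers tended to higher ratios, the Hox genes at least 25% above their median were Hoxa13 and Hoxd12 and those as far below were Hoxc9 and Hoxd1. That is 6.45% of Hox genes each way, against 1.23% of all genes above and 5.6% below. The part of the heart muscle RNA of that pool in these values was not tested. In wild-type pool 1 there were 6 low genes, Hoxa4, Hoxa11, Hoxb5, Hoxb9, Hoxd8 and Hoxd10 (19.4%, against 6.43% of all genes), and 0 high ones. Dll3neo/neo pool 3 held 1 high gene, Hoxa5 (3.23%, against 0.75% of all genes), and the lowest value of 0 Hox genes, against 12.2% of all genes. Dll3neo/neo pool 2 held the lowest value of 7 Hox genes (22.6%, against 9.32% of all genes). Wild-type pool 2 held that of 6 (19.4%, against 7.84%). The median range of a Hox gene between its highest and lowest pool was 0.57 on the log2 scale, against 0.38 for all genes.

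By cluster, 4 genes were higher and 5 lower by sign in cluster a, 4 and 5 in cluster b, 1 and 5 in cluster c and 3 and 4 in cluster d. The median log2 difference was -0.066 in cluster a, -0.018 in cluster b, -0.11 in cluster c and -0.020 in cluster d. Without wild-type pool 3 these medians were 0.10 in cluster a, 0.042 in b, 0.029 in c and 0.077 in d. In cluster a the pool medians were -0.065, -0.14 and 0.094 in Dll3neo/neo pools 1, 2 and 3, against -0.068, -0.066 and 0.39 in wild-type pools 1, 2 and 3. Cluster b had pool medians of 0.0029, -0.044 and 0.012 in Dll3neo/neo pools 1, 2 and 3, against -0.0029, -0.016 and 0.083 in wild-type pools 1, 2 and 3. Its single genes still varied, with a median range over the pools of 0.475 on the log2 scale. The paralogs within a group also differed from each other by value, as in group 5, where the log2 difference was 0.0024 for Hoxa5, 0.17 for Hoxb5 and -0.16 for Hoxc5.

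Genes that act on the Hox clusters gave no call. Of 21 measured regulators of 22 listed, 0 passed in either direction (0.00807% of all genes). By sign 7 were higher and 14 lower (66.7%, against 48.9% of all genes), and the median log2 difference was -0.049. The widest difference was that of Cdx2, a caudal-type factor that activates central Hox genes and is needed for tail growth. Its ratios were 0.941, 0.335 and 1.08 in Dll3neo/neo pools 1, 2 and 3, against 0.917, 1.03 and 1.52 in wild-type pools 1, 2 and 3. The low value was that of Dll3neo/neo pool 2 alone, and it was low by both probe sets (0.274 and 0.409). Cdx2 had a log2 difference of -0.69 with an SE of 0.38 (limma adjusted p = 0.99998), of -0.16 without Dll3neo/neo pool 2 and of -0.47 without wild-type pool 3.

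Cdx4, a related factor of the same tissue, had ratios of 0.719, 1.15 and 0.930 in Dll3neo/neo pools 1, 2 and 3, against 1.07, 0.899 and 1.72 in wild-type pools 1, 2 and 3. Its lowest pool was not the one in which Cdx2 was low, and the log2 difference of -0.37 (SE 0.24) was -0.10 without wild-type pool 3. Cdx1, the third member of the family, had a log2 difference of 0.017 (SE 0.11). Cyp26a1, which breaks down retinoic acid in the tail bud, had ratios of 1.03, 0.966 and 0.818 in Dll3neo/neo pools 1, 2 and 3, against 1.17, 0.948 and 1.64 in wild-type pools 1, 2 and 3. Its log2 difference of -0.39 (SE 0.19) was -0.17 without wild-type pool 3. Cdx2, Cdx4 and Cyp26a1 all peaked in wild-type pool 3, the pool in which 13 Hox genes were high. That pool held the highest value of 34.4% of all genes. Among the other measured regulators, Evx1, Fgf8, Acvr2a, Gmnn and Psip1 also peaked there. Cdx1 peaked in Dll3neo/neo pool 2, and Gdf11 (0.871) and Evx2 (0.828) had their lowest ratios in wild-type pool 3. A link between the regulators and the high Hox genes of wild-type pool 3 was not tested. In that pool the measured paraxial mesoderm and tail bud genes had a median log2 ratio of 0.28, against -0.23 to 0.14 in the other 5 pools, and the somite genes had -0.18, within their range of -0.21 to 0.094 in the others. The part of tissue makeup in the Hox values of wild-type pool 3 was not tested.

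Gdf11, a signal that starts the change from trunk to tail Hox genes, had a log2 difference of 0.066 (SE 0.10), and Nr6a1, which keeps the trunk programme going, had -0.062 (SE 0.13). Rarb, a retinoic acid receptor that is itself a retinoid target, was the 1 regulator without overlap and the 1 with an unadjusted limma p under 0.05. Its ratios were 1.12, 1.19 and 1.0 in Dll3neo/neo pools 1, 2 and 3, against 0.787, 0.995 and 0.892 in wild-type pools 1, 2 and 3. All Dll3neo/neo pools lay above the wild-type pools, narrowly for Dll3neo/neo pool 3, with a log2 difference of 0.31 (SE 0.12, limma adjusted p = 0.99998) that was 0.32 without wild-type pool 3. Among all genes 3.11% were higher without overlap. Aldh1a2, which makes retinoic acid in somites, had a log2 difference of 0.28 (SE 0.17), while Tgfbr1, a receptor for Gdf11 signals, had -0.31 (SE 0.19) and the RNA-binding gene Lin28a -0.27 (SE 0.16). Both of the last 2 were lowest in Dll3neo/neo pool 2, at ratios of 0.595 and 0.659, as Cdx2 was, and had log2 differences of -0.068 and -0.073 without that pool.

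**Figure D4:**
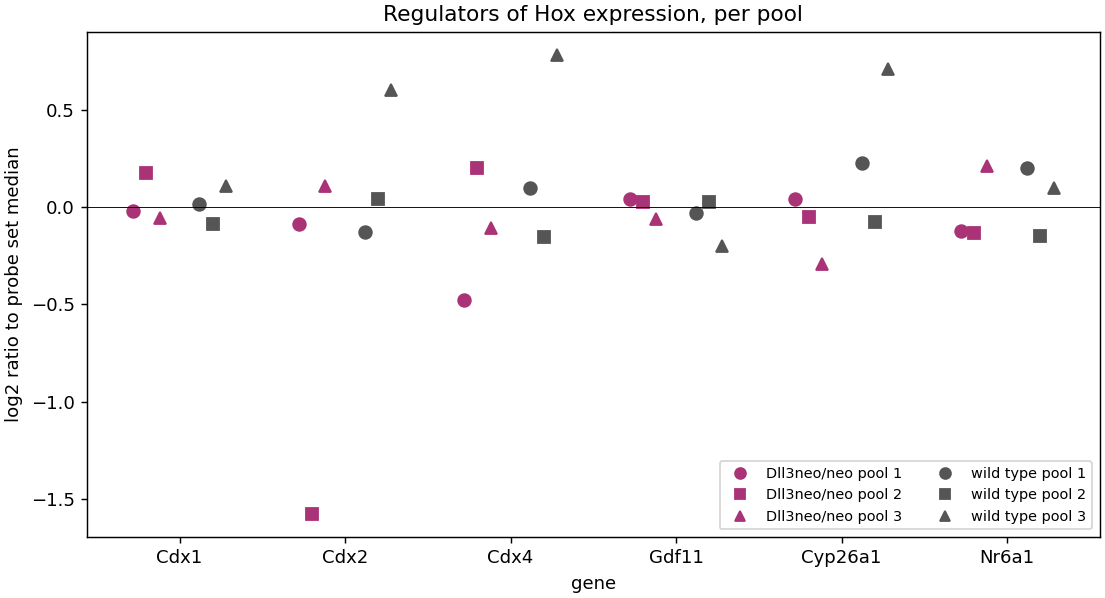
Log2 ratio to the probe set median (vertical axis) of 6 regulators of Hox expression (horizontal axis) in each pool, Dll3neo/neo in purple and wild type in grey, with the pool number given by the marker. Cdx2 is lowest in Dll3neo/neo pool 2, and Cdx2, Cdx4 and Cyp26a1 are highest in wild-type pool 3.

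The cofactors that bind DNA with Hox proteins were measured for 8 of 9 genes, of which 6 were higher and 2 lower by sign, with 0 calls and a median of 0.042. Meis3 was the 1 of 8 without overlap, where 4.95% of all genes had none and 3.11% were higher without it, at 1.01, 1.0 and 1.04 in Dll3neo/neo pools 1, 2 and 3, against 0.997, 0.879 and 0.836 in wild-type pools 1, 2 and 3 (log2 difference 0.17, SE 0.10). Polycomb and trithorax genes, which keep Hox genes silent or active, were measured for 14 of 15, with 7 higher and 7 lower, 0 calls and a median of 0.0082. Cbx8, a Polycomb subunit, was the 1 of 14 higher without overlap there, against 3.11% of all genes (log2 difference 0.13, SE 0.098).

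Markers of the tissues in the dissected level were read beside the Hox genes, and no marker passed the test. Paraxial mesoderm and tail bud genes were lower by sign in 11 of 11 measured genes, where 48.9% of all genes were lower. Their median log2 difference was -0.27, with pool medians of -0.15, -0.23 and 0.064 in Dll3neo/neo pools 1, 2 and 3, against 0.14, 0 and 0.28 in wild-type pools 1, 2 and 3. The median was -0.17 without wild-type pool 3. Of these 11 genes, 3 were lower without overlap, against 1.84% of all genes. Without overlap 2 of 9 neural tube genes, 2 of 10 lateral plate and hindlimb field genes, 1 of 9 heart muscle genes and 1 of 10 endothelium and blood genes were higher, against 3.11% of all genes, and 1 of 8 gut endoderm genes was lower. The paraxial mesoderm and tail bud list, like the other lists, was chosen with earlier results of these data known. It holds Fgf8, Wnt3a and Cyp26a1, which are also counted among the regulators. Somite genes had a median of 0.11, neural tube genes 0.016, lateral plate and hindlimb field genes 0.13, gut endoderm genes -0.057, surface ectoderm genes 0.0022 and endothelium and blood genes 0.062. The somite median was 0.021 without Dll3neo/neo pool 2. Without wild-type pool 3 the neural tube median was 0.10, that of lateral plate and hindlimb field genes 0.058, that of gut endoderm genes -0.0080 and that of surface ectoderm genes 0.11. The endothelium and blood median was -0.016 without Dll3neo/neo pool 1. Heart muscle genes had 0.98, and 0.086 without Dll3neo/neo pool 1.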

How the data were processed

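Gene expression was measured on 6 Affymetrix MOE430A arrays, 3 of Dll3neo/neo and 3 of wild-type pools. The deposited values are linear ratios to each probe set's median over the arrays, as the values show: that median is 1 within 0.001 for 92.7% of 22626 probe sets and below 1 for 1640. RMA and MAS5 are named without role in the submitters' processing notes; background, scaling between arrays and absolute level are not given in the sources used here. Of 22690 probe sets, 64 controls were left out. The annotation gave 20380 probe sets 1 symbol, 691 several (not used) and 1555 none, and symbols were updated by Entrez ID through RefSeq (GRCm38.p6; 20351 matched).

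Log2 ratios were averaged per gene and compared with limma 3.58.1 (R 4.3.3; lmFit, eBayes, genotype only, two-sided, Benjamini-Hochberg over all genes). Probe sets were fitted likewise. Alternatives changed the scaling, the offset, the probe sets used, the variance model, array weights, the replicate block and the pools, with paralog group 4 counted as anterior, and 2 pools left out together, added after the values were seen. The code was tested on simulated data. Genes given by pool were the 3 largest differences in each cluster, groups 1 and 13, genes without overlap and genes whose probe sets disagreed; regulators were named without overlap or at a log2 difference of at least 0.25 in size, with 6 always named. Members and lists were chosen with earlier results of these data known. Upstream regions were printed in place of protein sequence. Figures used matplotlib 3.10.9 in Python 3.11.15.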

Additional observations from a re-analysis of the deposited data

Results flagged for a closer look

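The annotation assigns 3 probe sets to several Hox symbols at once, so they name no gene and entered no comparison of Hox genes. In 2 of them a Dll3neo/neo pool lay above all wild-type pools. That is common over all genes, of which 12.0%, 15.8% and 11.8% had their highest value in Dll3neo/neo pools 1, 2 and 3. Probe set 1452493_s_at, of cluster b, had ratios of 0.874, 2.26 and 0.991 in Dll3neo/neo pools 1, 2 and 3, against 0.671, 1.01 and 1.26 in wild-type pools 1, 2 and 3, so its highest value (2.262) was that of Dll3neo/neo pool 2 alone. Probe set 1421537_at, of cluster d, had 1.213, 0.788 and 0.930 in Dll3neo/neo pools 1, 2 and 3, against 1.07, 0.857 and 1.08 in wild-type pools 1, 2 and 3. The third, probe set 1450209_at of cluster d, had 1.0, 0.468 and 0.894 in Dll3neo/neo pools 1, 2 and 3, against 1.17, 1.0 and 1.43 in wild-type pools 1, 2 and 3, so no Dll3neo/neo pool lay above any wild-type pool. None of the 3 passed in the limma test over all probe sets.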

How the results depend on the processing

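No Hox gene passed under any of the 17 alternatives of the gene fit, and no Hox probe set under any of the 16 of the probe set fit. The count over all genes, 1 (Dll3), was 2 with quantile normalization, with arrays centred on their medians, without medians below 1 and with a variance trend, 3 with array weights, 0 with log2(value + 32), 0 without variance moderation, and 1 to 2 leaving out each pool. The count of probe sets, 1, was 2 with quantile normalization and 2 with array weights, 0 with log2(value + 32), 0 without variance moderation, and 0 to 1 leaving out each pool. Replicate numbers were shared by the genotypes, but the labels do not say that a number marks a shared litter or day. The deviations of same-numbered pools correlated at 0.187, -0.002 and 0.207 for numbers 1, 2 and 3. Those of differently numbered pools correlated at -0.203 to 0.122. The numbers were not taken as pairs, and with the replicate block 1 gene and 0 Hox genes passed.

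Leaving out each pool, the median log2 difference ran from -0.091 to 0.056 over all Hox genes, from -0.16 to 0.10 in cluster a, from -0.045 to 0.052 in cluster b, from -0.155 to 0.029 in cluster c, from -0.13 to 0.077 in cluster d, from -0.25 to 0.031 in the anterior, from -0.093 to 0.065 in the central and from -0.041 to 0.098 in the posterior class. It ran from -0.14 to -0.036 for regulators, from 0.010 to 0.11 for cofactors, from -0.073 to 0.10 for Polycomb and trithorax, from -0.30 to -0.17 for tail bud, from 0.021 to 0.15 for somite, from 0.058 to 0.18 for lateral plate, from -0.14 to -0.0080 for gut endoderm, from 0.086 to 1.42 for heart muscle, from -0.039 to 0.10 for neural tube, from -0.036 to 0.11 for surface ectoderm and from -0.016 to 0.12 for endothelium and blood genes. Without wild-type pool 3 and Dll3neo/neo pool 1 together, added after the values were seen, the median was 0.067 over all Hox genes, 0.066 in cluster c, 0.098 in cluster d, 0.13 in the central and 0.067 in the posterior class. The genotype difference in the axial contrast was then -0.0005, a fall fixed by the choice of the pools with its lowest and highest values. Leaving out each pool in turn, that difference ran from 0.038 to 0.20. With array weights, which weighted wild-type pool 2 at 5.24 and wild-type pool 3 at 0.209, the median was 0.085 in cluster c, 0.053 in the anterior and 0.043 in the central class, -0.084 for tail bud, 0.11 for neural tube and 0.026 for lateral plate genes, and 11 Hox genes changed sign. With log2(value + 32), which shrinks log2 differences between ratios near 1, it was -0.0032 in cluster c, -0.0085 for tail bud and 0.0038 for lateral plate genes. Their signs were those of the main fit. Over all Hox genes it was -0.0013 on that scale, so these sizes cannot be set beside those of the other settings. Without wild-type pool 3, 10 of the 31 Hox genes changed sign. Leaving out each pool, Hoxc5 ran from -0.26 to 0.0020 (without wild-type pool 2) and Hoxc9 from -0.27 to 0.012 (without Dll3neo/neo pool 1). The cause was not tested.

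The unknown brightness of the probe sets and the 3 pools a genotype limit these values.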
